A study of Homo sapiens with 9 samples.

Results

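In OVCA433 cells, a set of kallikrein serine proteases and 3 inhibitors of serine proteases was followed at the RNA level after knockdown of MPZL3. The 10 genes were KLK5, KLK6, KLK7, KLK8, KLK10, KLK11 and KLK13 and the inhibitors SLPI, SPINK5 and A2ML1. They were chosen by name, with earlier results of these data known. All 10 were found among the 58676 genes in the count table. OVCA433 is a human ovarian serous adenocarcinoma cell line, and MPZL3 encodes a membrane protein of the immunoglobulin superfamily. Cells carrying the lentiviral control vector, MPZL3 shRNA#1 or MPZL3 shRNA#3 were sequenced as poly(A) RNA, with 3 libraries (A, B and C) in each group. The shRNA cells were selected as mixed populations rather than as single clones, and the design holds no rescue of MPZL3 and no parental cells without a vector.

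Kallikreins are secreted proteases encoded side by side on chromosome 19. They are made as inactive zymogens and can activate one another in cascades, in which KLK5 is an initiating enzyme with trypsin-like activity and KLK7 is a chymotrypsin-like enzyme. Their best known tissue is the skin, where they cut the junctions between shed keratinocytes and are held in check by LEKTI, the product of SPINK5. SLPI encodes a small secreted inhibitor of leukocyte and other serine proteases, and A2ML1 encodes a broad protease inhibitor that traps its target. Several kallikreins have long been studied as markers of ovarian cancer, in tumour tissue and in blood.

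The 7 kallikrein genes lie on the minus strand of chromosome 19 between positions 50943303 and 51065114 (hg38). SLPI lies on chromosome 20 (45252239 to 45254564, minus strand), SPINK5 on chromosome 5 (148025683 to 148137289, plus strand) and A2ML1 on chromosome 12 (8822472 to 8887001, plus strand). The sequences before a RefSeq start of 4 genes are shown, those of KLK5 and KLK6, the 2 most abundant members, of KLK7, which like KLK6 differed between the hairpins, and of SPINK5, the tested member that was not called. They come from RefSeq (GRCh38.p14), run 5′ to 3′ on the gene's strand, and stop at the first base that GENCODE gives to an exon of the gene. For SPINK5 this RefSeq start lies inside the longer gene of the count table, so its sequence does not precede that gene. Capitals mark a GC box (GGGCGG, bound by SP factors), the E-box CACCTG, or the glucocorticoid receptor motif AGAACA, read on either strand.
KLK5, chr19:50953094-50953288, minus strand: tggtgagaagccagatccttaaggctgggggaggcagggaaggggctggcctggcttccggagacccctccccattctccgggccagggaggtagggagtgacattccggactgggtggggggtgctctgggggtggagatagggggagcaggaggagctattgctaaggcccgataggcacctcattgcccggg
KLK6, chr19:50969674-50969841, minus strand: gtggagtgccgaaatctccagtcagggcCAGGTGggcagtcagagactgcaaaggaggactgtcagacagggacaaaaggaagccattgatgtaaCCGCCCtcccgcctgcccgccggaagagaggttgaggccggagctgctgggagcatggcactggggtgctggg
KLK7, chr19:50984100-50984314, minus strand: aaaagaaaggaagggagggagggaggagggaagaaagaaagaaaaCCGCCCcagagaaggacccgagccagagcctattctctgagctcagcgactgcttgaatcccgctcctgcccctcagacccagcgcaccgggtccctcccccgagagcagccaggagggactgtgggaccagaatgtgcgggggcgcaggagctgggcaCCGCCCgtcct
SPINK5, chr5:148063730-148063862, plus strand: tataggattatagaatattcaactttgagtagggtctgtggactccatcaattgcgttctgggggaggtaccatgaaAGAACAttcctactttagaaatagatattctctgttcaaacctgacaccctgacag
Promoter sequences were matched for 8 of the 10 genes, all but KLK8 and SLPI. The windows of KLK10 and KLK11, like that of SPINK5, lie inside the longer genes of the count table. In the whole window of 250 bases before the RefSeq start, the GC box was present in 3 of those 8 (KLK6, KLK7 and KLK13) and in 42.6% of 35116 promoters. The E-box, which ZEB and SNAI factors bind, was present in 2 of 8 (KLK6 and A2ML1) and in 17.5% of promoters. The TATA box TATAAA was present in SPINK5 and A2ML1 and in 10.7% of promoters. The motif AGAACA, bound by the glucocorticoid receptor, was present in SPINK5 and in 12.4% of promoters. Neither the AP-1 site TGANTCA, present in 6.57% of promoters, nor the grainyhead-like site AACCGGTT, present in 0.117%, was found in any of the 8 windows. The windows of KLK5, KLK6 and KLK7 were 64.8%, 66.8% and 64.0% G and C, against 41.6% for SPINK5 and a median of 58.0% over all promoters.

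The 9 libraries held between 16850854 and 23890191 counts assigned to genes, and 15975 genes passed the filter on low counts. MPZL3 was at 15.6, 21.9 and 21.0 CPM (the count of a gene scaled to the size of its library) in control libraries A, B and C, at 1.87, 1.98 and 1.80 CPM with shRNA#1 and at 1.94, 0.988 and 1.80 CPM with shRNA#3. The targeted RNA was thus lower in all 6 knockdown libraries than in any control library (log2 fold change -3.49 ± 0.19 SE, edgeR adjusted p = 6.87e-08). Of 10 markers of serous ovarian cells, WT1 was at 0 in all libraries and MUC16 was at 0 in the knockdown libraries only, whereas the marker PAX8 was present throughout and higher with both hairpins (97.0 ± 16.7 CPM in control, 199.9 ± 12.2 and 207 ± 21 CPM, edgeR adjusted p = 2.25e-05 in the pooled comparison). Of the 9 of these markers that were tested, 6 were lower and 1, PAX8, was higher in the pooled comparison, where 7.40% of all genes were called lower and 7.26% higher. MSLN was called higher with shRNA#3 alone (1.12 ± 0.20 SE on the log2 scale, edgeR adjusted p = 5.98e-04). Their summed level was 10100 to 12250 CPM in control libraries, 5286 to 6770 CPM with shRNA#1 and 5277 to 5960 CPM with shRNA#3, most of it from the keratins KRT7, KRT8 and KRT18. The summed level of 9 keratinocyte markers was 29.4 to 36.9 CPM over the 9 libraries, most of it from KRT10, which was not called. The other keratinocyte marker that could be tested, the cornified envelope protein IVL, was at 2.18, 3.78 and 5.16 CPM in control libraries and at 0 in all 6 knockdown libraries, at least 150-fold lower (edgeR adjusted p = 5.60e-05). IVL and MUC16 thus passed the filter on low counts through the control libraries alone. The summed level of 8 markers of leukocytes, vessels and other cells was 0.846 to 2.10 CPM. The part of these marker changes in the results that follow was not tested. In such bulk RNA, fewer cells that express a gene and less RNA per cell cannot be told apart.

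In control cells the kallikreins were not evenly expressed, and KLK5 and KLK6 made up nearly all of their RNA. Per kilobase of transcript, which allows genes to be compared with one another, KLK5 was at 404.3 ± 66.8 CPM per kb (SD, n = 3), KLK6 at 105.3 ± 17.8 and SLPI at 42.0 ± 19.8. None of these 3 overlapped its neighbour in the order. KLK10, KLK8 and KLK7 followed at 2.58 ± 0.94, 1.29 ± 0.31 and 1.04 ± 0.31 CPM per kb, and each overlapped the next of them in its library values. SPINK5 was at 0.501 ± 0.098, and A2ML1 at 0.269 ± 0.095 CPM per kb. KLK11 and KLK13 were near the limit of detection, with 6 and 2 counts summed over the 3 control libraries. The 8 other kallikreins of the family, among them KLK2, KLK3 and KLK4, did not pass the filter, and none of them exceeded 0.439 CPM in a library (KLK14). The 5 kallikreins that passed the filter lie next to one another, from KLK5 to KLK10, with KLK9 inside that run at 0 in all 9 libraries.

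**Figure D1:**
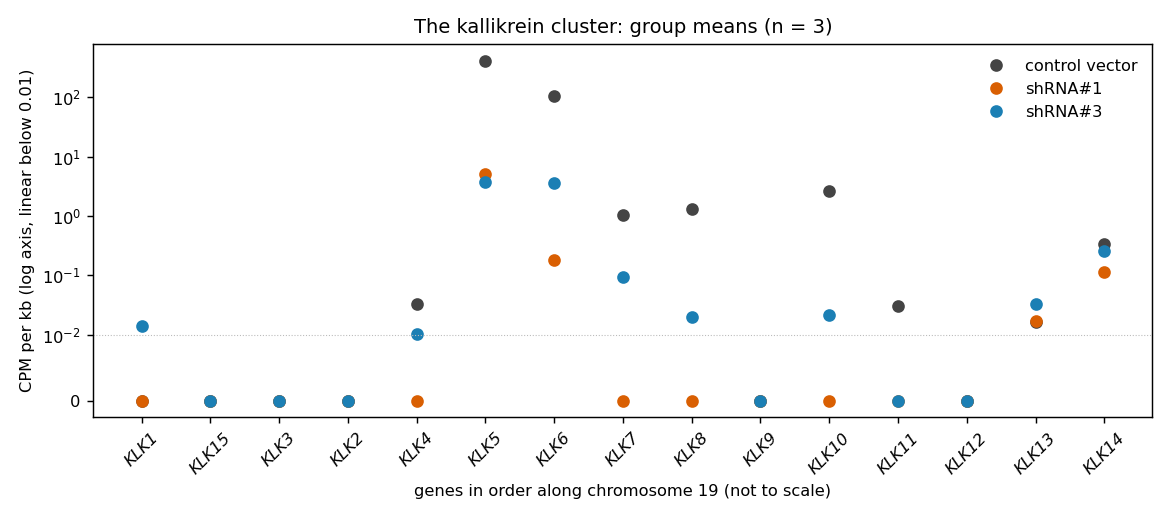
Mean CPM per kb of 3 libraries (log axis, linear below 0.01) for the 15 kallikrein genes in their order along chromosome 19, by group. In control cells KLK5 and KLK6 stand at 404.3 and 105.3 CPM per kb, and KLK1, KLK2, KLK3, KLK9, KLK12 and KLK15 are at 0. With shRNA#1 KLK4, KLK7, KLK8, KLK10 and KLK11 are also at 0.

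With knockdown of MPZL3, the 5 expressed kallikreins and 2 of the 3 inhibitors fell, and SPINK5 was not called. In the comparison of the 6 knockdown libraries with the 3 control libraries, 7 of the 8 members that could be tested were lower and none was higher (called at edgeR adjusted p under 0.05 and a change of at least 2-fold). Over all tested genes 7.40% were called lower and 7.26% higher, and their median log2 fold change was 0.0045, against -6.13 for the 8 members. The members were chosen with earlier results of these data known, so this contrast is a description and no test of the set. KLK7, KLK8, KLK10 and A2ML1 passed the filter on low counts through the control libraries alone, so that a difference was built into their passing. KLK11 and KLK13 were not tested. Each hairpin alone gave the same number of calls: with shRNA#1 7 members were lower, where 8.55% of all genes were called lower and 7.76% higher, and with shRNA#3 7 were lower, where 7.83% of all genes were called lower and 7.46% higher. Both hairpins were compared with the same 3 control libraries.

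**Figure D2:**
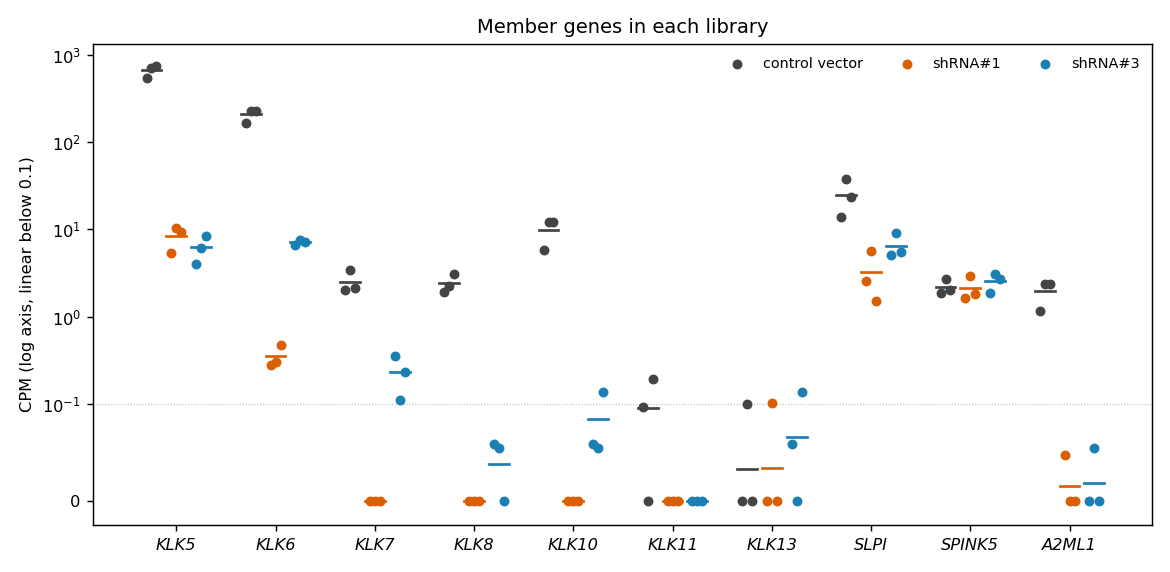
CPM of each member gene in each of the 9 libraries (points; log axis, linear below 0.1), with the mean of each group as a line. For KLK5, KLK6, KLK7, KLK8, KLK10, SLPI and A2ML1 every knockdown library lies below every control library, whereas the groups overlap for SPINK5 and KLK13.

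KLK5, the trypsin-like enzyme that can start the cascade, was at 543, 708 and 753 CPM in control libraries A, B and C. It was at 5.37, 10.5 and 9.30 CPM with shRNA#1 and at 4.06, 6.20 and 8.47 CPM with shRNA#3. Both knockdown groups were far below control and overlapped each other, which left 1.26% of the control mean with shRNA#1 and 0.934% with shRNA#3. The log2 fold change was -6.32 ± 0.28 SE for shRNA#1 (edgeR adjusted p = 1.58e-09) and -6.72 ± 0.29 SE for shRNA#3 (edgeR adjusted p = 1.501e-09). The difference between the hairpins was -0.41 ± 0.27 on the log2 scale and was not called (edgeR adjusted p = 0.389).

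KLK6, another trypsin-like kallikrein, was at 168, 229 and 228 CPM in control libraries. It was at 0.280, 0.305 and 0.472 CPM with shRNA#1 and at 6.71, 7.57 and 7.14 CPM with shRNA#3. The levels with shRNA#1 rested on 6, 6 and 11 counts. All 6 knockdown libraries were below control, and the 3 libraries of shRNA#1 were all below the 3 of shRNA#3. KLK6 retained 0.169% of its control mean with shRNA#1 (log2 fold change -9.16 ± 0.21 SE, edgeR adjusted p = 1.58e-11) and 3.43% with shRNA#3 (log2 fold change -4.86 ± 0.15 SE, edgeR adjusted p = 1.08e-10). It was higher with shRNA#3 than with shRNA#1 by 4.30 ± 0.24 on the log2 scale (edgeR adjusted p = 2.04e-07).

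KLK7, the chymotrypsin-like enzyme, had 42, 68 and 45 counts in control libraries, none in any library of shRNA#1, and 6, 2 and 5 counts with shRNA#3. With shRNA#1 it was at least 53.9-fold lower, taking 3 counts over the group as the limit of detection (edgeR adjusted p = 6.75e-06). With shRNA#3 the ratio of summed counts was 11.01-fold lower, with an exact 95% counting interval of 6.25 to 21.1 (log2 fold change -3.43 ± 0.45 SE, edgeR adjusted p = 1.25e-04). The 2 hairpins differed for KLK7 by a fitted 5.26 on the log2 scale (edgeR adjusted p = 0.0177), a value that rests on 13 counts against 0 and depends on how a count of 0 is treated. Without library C of shRNA#1 this adjusted p was 0.0501. KLK7 could be tested only because of its control counts, so its adjusted p-values against control come after that selection. The counting intervals here and below cover counting error only, since reads without molecular identifiers are not independent molecules. Values given as at least leave out the counting error of the control counts, so they cannot be compared directly with these intervals.

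KLK8, known also as neuropsin, had 40, 45 and 64 counts in control libraries, none with shRNA#1, and 1, 1 and 0 counts with shRNA#3. It was at least 51.9-fold lower with shRNA#1 (edgeR adjusted p = 6.09e-06), and 68.8-fold lower with shRNA#3, with a counting interval of 18.7 to 573 (edgeR adjusted p = 1.67e-05). KLK10 was the kallikrein with the third highest level in control cells, at 119, 243 and 251 counts, and had none with shRNA#1 and 1, 1 and 3 counts with shRNA#3. It was at least 213-fold lower with shRNA#1 (edgeR adjusted p = 4.04e-07) and 113-fold lower with shRNA#3, with a counting interval of 48.3 to 350 (edgeR adjusted p = 9.07e-07). For neither gene was the difference between the hairpins called (edgeR adjusted p = 0.307 for KLK8 and 0.176 for KLK10). KLK8 and KLK10 likewise passed the filter through the control libraries alone, so their adjusted p-values against control come after that selection. Counts this low cannot separate silence from a small residue of RNA.

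KLK11 had 2, 0 and 4 counts in control libraries and none in the 6 knockdown libraries. Set against 3 counts over the group, the ratio was 2.09-fold for shRNA#1 and 1.85-fold for shRNA#3, without a test. It leaves out the counting error of the few control counts, so it is no firm lower limit. KLK13 had 0, 2 and 0 counts in control libraries, 0, 2 and 0 with shRNA#1 and 1, 0 and 3 with shRNA#3. These 2 genes were thus at or near the limit of detection in all groups.

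SLPI was at 14.0, 37.5 and 23.8 CPM in control libraries A, B and C. It was at 2.57, 5.65 and 1.501 CPM with shRNA#1 and at 5.06, 8.998 and 5.52 CPM with shRNA#3. The spread among the control libraries was wide, yet no knockdown library reached the lowest control library. The log2 fold change was -2.97 ± 0.43 SE for shRNA#1 (edgeR adjusted p = 1.04e-04) and -1.94 ± 0.40 SE for shRNA#3 (edgeR adjusted p = 0.00197). SLPI was 1.03 ± 0.44 higher with shRNA#3 than with shRNA#1 on the log2 scale, which was not called (edgeR adjusted p = 0.167), and the libraries of the 2 hairpins overlapped, although it was called without library B of shRNA#1 (1.69, edgeR adjusted p = 0.0448) and with no filter on low counts (1.04, edgeR adjusted p = 2.38e-06). The 415 tested genes of chromosome 20 had a median difference of 0.34 between the hairpins in the same direction, and the 33 tested genes within 1 Mb of SLPI a median of 0.30. Their part in the result for SLPI was not tested.

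A2ML1 had 24, 47 and 50 counts in control libraries and a single count in 1 library of each hairpin, A for shRNA#1 and B for shRNA#3. The ratio to control was 126-fold lower with shRNA#1, with a counting interval of 22.3 to 5030, and 112-fold lower with shRNA#3, with an interval of 19.7 to 4449 (edgeR adjusted p = 1.30e-05 and 2.06e-05). A2ML1 also passed the filter through the control libraries alone, so these adjusted p-values come after that selection. SPINK5, which encodes the LEKTI inhibitor of KLK5 and KLK7, had 39, 54 and 42 counts in control libraries, 35, 58 and 42 with shRNA#1 and 32, 56 and 59 with shRNA#3. The 3 groups overlapped throughout. The log2 fold change of SPINK5 was -0.05 ± 0.29 SE for shRNA#1 (edgeR adjusted p = 0.913) and 0.23 ± 0.29 SE for shRNA#3 (edgeR adjusted p = 0.597). At this depth a change somewhat larger than this error could also go undetected, and a call needed a log2 fold change of at least 1 in size. SPINK5 also had 8 tested neighbours within 1 Mb, whose median log2 fold change was 0.06 for shRNA#1 and -1.27 for shRNA#3.

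Because KLK5 and KLK6 fell by different amounts with each hairpin, the make-up of the remaining kallikrein RNA differed between the groups. The ratio of KLK5 to KLK6 per kilobase was 3.70 to 3.95 in the control libraries (mean 3.84 ± 0.13 SD, n = 3), 22.9 to 41.0 with shRNA#1 (29.2 ± 10.3) and 0.724 to 1.42 with shRNA#3 (1.04 ± 0.35). The 3 groups did not overlap. Each of the 3 comparisons gave p = 0.1 in a 2-sided exact permutation test, the smallest value that 3 against 3 libraries can give. With shRNA#1 the ratio rested on only 6, 6 and 11 counts of KLK6, so its size is imprecise. KLK5 accounted for 78.6 ± 0.6% of the kallikrein RNA per kilobase in control, 96.2 ± 0.6% with shRNA#1 and 48.9 ± 8.5% with shRNA#3. The 7 kallikreins took 0.0733 to 0.0981% of all counts in control libraries, 0.000565 to 0.00108% with shRNA#1 and 0.00114 to 0.00160% with shRNA#3. Since SLPI fell less than the kallikreins, their ratio to SLPI per kilobase was 13.7 ± 4.6 in control, 1.27 ± 0.92 with shRNA#1 and 0.729 ± 0.228 with shRNA#3.

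**Figure D3:**
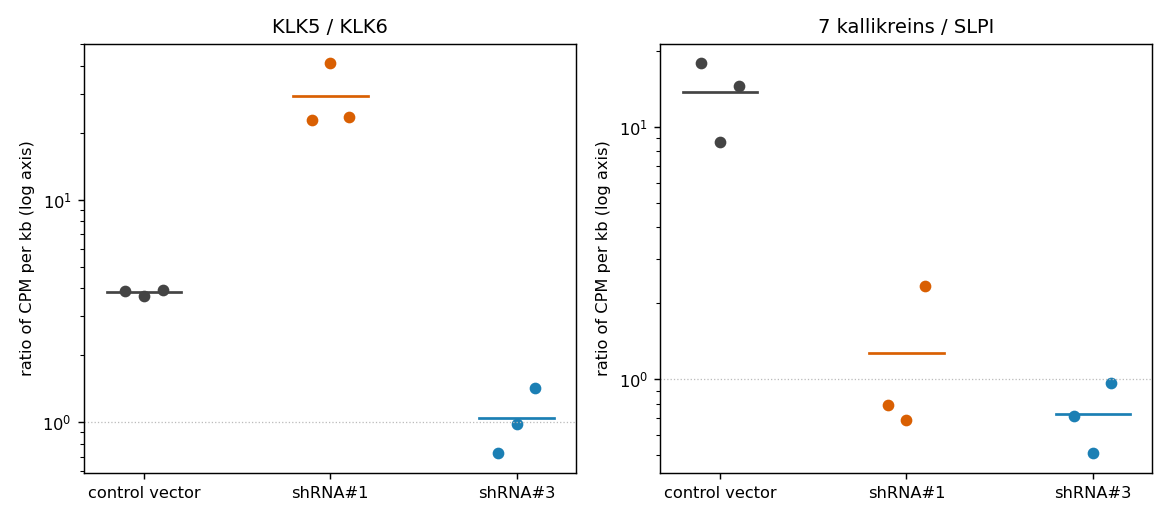
Ratios of CPM per kb in each library (points; log axes), with group means as lines: KLK5 to KLK6 on the left, the sum of the 7 kallikreins to SLPI on the right. For KLK5 to KLK6 the control libraries lie at 3.70 to 3.95, shRNA#1 at 22.9 to 41.0 and shRNA#3 at 0.724 to 1.42, without overlap. The shRNA#1 ratios rest on 6, 6 and 11 counts of KLK6.

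The order of the members was therefore another one in each group. With shRNA#1, SLPI (5.44 ± 3.61 CPM per kb) and KLK5 (5.07 ± 1.62) were highest and overlapped, and SPINK5 (0.486 ± 0.164) stood above KLK6 (0.178 ± 0.053). With shRNA#3, SLPI was highest at 10.9 ± 3.6 CPM per kb, KLK5 (3.78 ± 1.33) and KLK6 (3.61 ± 0.22) overlapped below it, and SPINK5 followed at 0.584 ± 0.139. Direct comparison of the hairpins called 2 of 8 tested members higher with shRNA#3 (KLK6 and KLK7) and none lower, where 2.22% of all genes were called higher and 1.72% lower.

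The fall was compared with the genes around the cluster. Of 34 tested genes within 1 Mb on either side, 4 were higher and 2 lower in the pooled comparison, and their median log2 fold change was -0.33 for shRNA#1 and -0.06 for shRNA#3. The 1173 tested genes of chromosome 19 had medians of -0.19 and -0.10. The nearest tested genes were C19orf48 and CTU1, on either side of the cluster, at log2 fold changes of -0.40 ± 0.16 SE (edgeR adjusted p = 0.0728) and -0.34 ± 0.15 SE (edgeR adjusted p = 0.105), and neither was called. With shRNA#1 alone both passed the adjusted p but not the 2-fold limit, at -0.65 ± 0.12 SE for C19orf48 (edgeR adjusted p = 8.36e-04) and -0.48 ± 0.15 SE for CTU1 (edgeR adjusted p = 0.0248). One neighbour separated the hairpins: EMC10, singled out after its values were seen, fell by 5.94 on the log2 scale with shRNA#1 (edgeR adjusted p = 5.07e-10), while its value with shRNA#3 was -0.07 (edgeR adjusted p = 0.766).

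**Figure D4:**
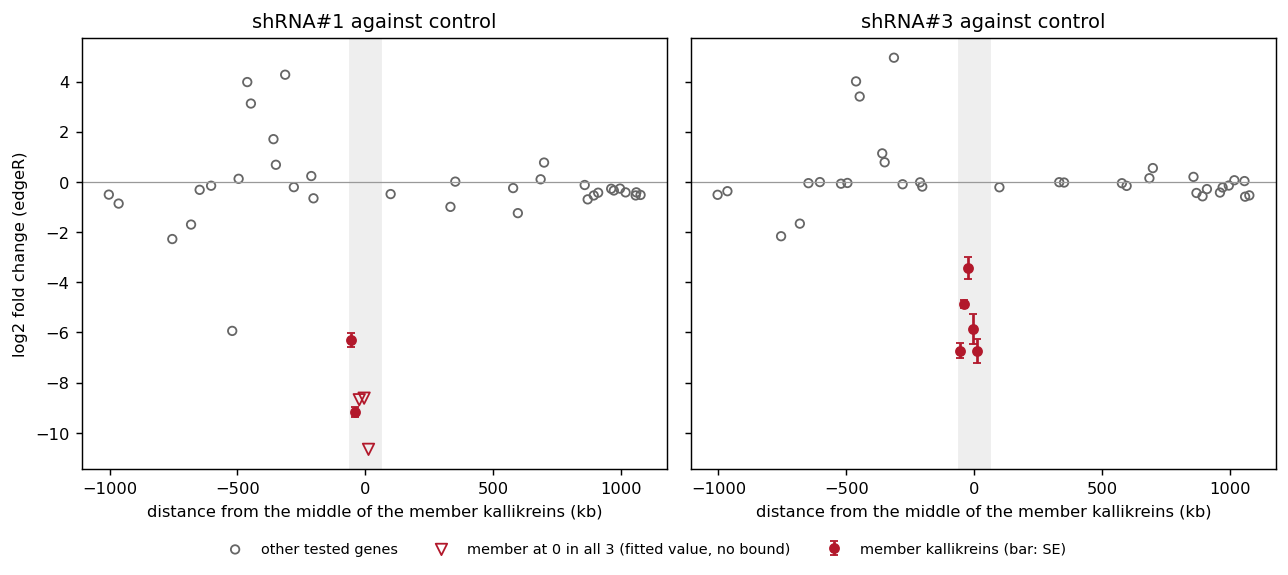
Log2 fold change of each hairpin against control (edgeR) for the tested genes within 1 Mb of the member kallikreins (grey circles) and for the member kallikreins (red, bars SE), by distance from the middle of the members in kb. The members lie between -3.43 and -6.73 with shRNA#3, and the hollow triangles with shRNA#1 are KLK7, KLK8 and KLK10, which had no counts and whose fitted values are no bound.

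Several members share exons with other annotated genes, and the counts were made without regard to strand. In GENCODE 29, 202 exonic bases of KLK5 (12.2%) and 401 of KLK6 (20.3%) were shared with the antisense gene CTB-147C22.8, and 240 of KLK10 (6.23%) with the antisense gene CTC-518B2.12. KLK8 shared 747 bases (40.1%) with CTC-518B2.8 on its own strand, and reads from those bases cannot be assigned to one gene alone. CTB-147C22.8 had 12, 11 and 16 counts in control libraries and 1 count in all 6 knockdown libraries together. CTC-518B2.8 had 0, 3 and 2 counts in control libraries and none with knockdown, and CTC-518B2.12 had none at all. Reads from the paired strands cannot be told apart. KLK7, KLK11, KLK13, SLPI, SPINK5 and A2ML1 had no such overlap.

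A list of 13 genes that work alongside kallikreins held proteases, many of them in the same cascades, and the urokinase receptor PLAUR. Of these 13, 10 were tested, 8 were lower, none was higher, and 2 were not called. The shares over all tested genes were 7.40% lower and 7.26% higher. This list, like the other gene lists, was chosen with earlier results of these data known, so the shares are a description only. HPN, TMPRSS4 and TMPRSS11E were at 0 in all 6 knockdown libraries. TMPRSS13 had 1 count there, and ST14 at most 9 in a library. These genes passed the filter on low counts through the control libraries alone, so a difference was built into their passing. ST14, the membrane protease matriptase that can activate kallikrein zymogens, was at 406 ± 21 CPM in control and at 0.112 ± 0.082 and 0.308 ± 0.195 CPM with shRNA#1 and shRNA#3 (log2 fold change of the pooled comparison -10.95 ± 0.24 SE, edgeR adjusted p = 6.81e-11). PRSS8, its partner prostasin, fell from 91.1 ± 14.4 to 2.18 ± 0.47 and 4.69 ± 1.07 CPM (-4.74 ± 0.28 SE, edgeR adjusted p = 1.33e-07). TMPRSS4, a membrane serine protease, was at 17.2 ± 0.3 CPM in control and at 0 in all 6 knockdown libraries, and TMPRSS13 was at 10.4 ± 2.3 CPM in control and at 0 and 0.0183 CPM. The tissue plasminogen activator PLAT fell by 2.64 and the cathepsin CTSV by 1.05 on the log2 scale in the pooled comparison, although CTSV missed the 2-fold limit with shRNA#3 alone (-0.85), whereas the values of the urokinase system did not pass the test (PLAU -0.19, PLAUR -0.09).

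Among inhibitors outside the members, 13 of 31 were tested, 6 were lower and 2 were higher, where 7.40% of all genes were called lower and 7.26% higher. The Kunitz-type inhibitors of matriptase and hepsin, SPINT1 and SPINT2, fell, with log2 fold changes of -5.80 ± 0.12 and -2.42 ± 0.09 SE (edgeR adjusted p = 6.81e-11 and 3.38e-09). WFDC2, which encodes the ovarian cancer marker HE4, was at 105 ± 23 CPM in control and at 2.39 ± 0.38 and 1.39 ± 0.22 CPM with the hairpins. The cystatin CST6 fell from 499.6 ± 163.9 to 1.97 ± 0.37 and 13.7 ± 2.4 CPM, and the serpin SERPINB5 from 133 ± 9 to 50.3 ± 5.0 and 43.9 ± 4.5 CPM. SERPINE2, which inhibits thrombin and urokinase, rose instead, from 28.3 ± 4.2 to 125.5 ± 16.5 and 52.9 ± 2.4 CPM (1.66 ± 0.36 SE, edgeR adjusted p = 0.00396). With shRNA#3 alone its log2 fold change of 0.90 missed the 2-fold limit, and it was lower with shRNA#3 than with shRNA#1 (-1.25 ± 0.13 SE, edgeR adjusted p = 4.05e-05).

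Receptors and substrates of kallikreins moved in both directions: 8 of 13 were tested, 4 were higher, 1 was lower and 3 were not called. Among all tested genes 7.26% were called higher and 7.40% lower. The protease-activated receptors F2R and F2RL2 rose by 1.15 ± 0.11 and 3.64 ± 0.23 (SE) on the log2 scale (edgeR adjusted p = 1.05e-05 and 2.07e-07), while F2RL1, the receptor best known as a target of KLK5 and KLK6, was at -0.62 ± 0.17 (edgeR adjusted p = 0.0134) and missed the 2-fold limit. E-cadherin (CDH1) was at 275 ± 5 CPM in control and 0.112 ± 0.082 and 0.148 ± 0.183 CPM with the hairpins. CDH1 too passed the filter on low counts through the control libraries alone. Fibronectin (FN1) rose by 2.28 ± 0.31 and the cytokine IL1B by 3.89 ± 0.63 (SE) on the log2 scale. Of 10 nuclear hormone receptors, a family that regulates several kallikreins in other tissues, 8 were tested and 2 were higher, where 7.26% of all genes were called higher: the glucocorticoid receptor NR3C1 (1.04 ± 0.15 SE) and the mineralocorticoid receptor NR3C2 (1.33 ± 0.20 SE). NR3C1 missed the 2-fold limit with shRNA#3 alone (0.92 ± 0.14 SE).

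**Figure D5:**
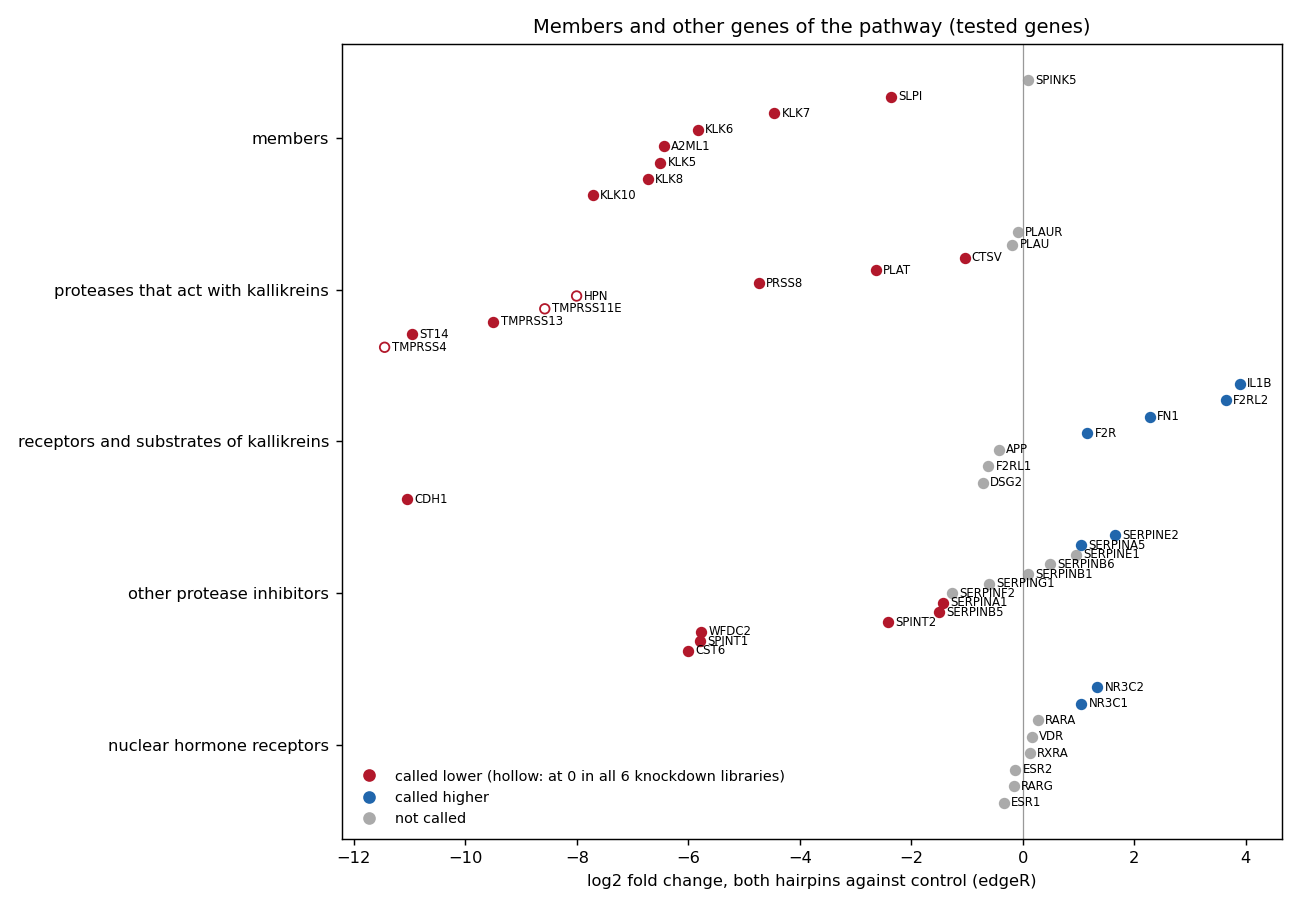
Log2 fold change of both hairpins against control (edgeR) for the 8 tested members and the tested genes of 4 lists, coloured by call and labelled by gene. Hollow points are genes at 0 in all 6 knockdown libraries, whose fitted values are no bound. Of the protease list, which includes the urokinase receptor PLAUR, 8 of 10 genes are lower, and of the members 7 of 8, where 7.40% of all tested genes are. Members and lists were chosen with earlier results of these data known.

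The genes whose levels followed KLK5 most closely over the 9 libraries were LAMA3 (Pearson r = 0.997 on log2(CPM + 1)), SPINT1, LLGL2, BAIAP2L1 and CDH3 (lowest r = 0.996). CDH3 encodes P-cadherin and LAMA3 a laminin chain of epithelial basement membranes. LAMA3 was at 374 to 435.5 CPM in control libraries and at 29.1 to 35.7 CPM in knockdown libraries, and CDH3 at 187 to 205 CPM and 2.06 to 4.39 CPM. These libraries fall into a control and a knockdown cluster, 98 genes had an r over 0.99 with KLK5, and the values are given as a description only. Among the control libraries, A was the lowest for KLK5, KLK6, KLK7, KLK8, KLK10, SLPI, SPINK5 and A2ML1.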

How the data were processed

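Paired-end reads of 9 poly(A) libraries, made without strand information, were aligned by the authors to hg38 with HISAT2 2.0.5 and counted per gene with featureCounts 1.5.0-p3, per the labels' processing notes. The deposited table holds raw counts for 58676 genes, which were used as deposited. The study's methods describe the control vector both as empty and as scrambled, so a hairpin in it can be neither assumed nor denied. The libraries are stated to be biological replicates. The members and gene lists were chosen with earlier results of these data known.

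Counts were analysed with edgeR 4.0.16 (R 4.3.3): TMM scaling, a filter on low counts (filterByExpr, minimum 10, minimum total 15; 15975 genes kept), the quasi-likelihood test and Benjamini-Hochberg adjustment over all genes kept. Each hairpin was compared with control, and with the other hairpin, in a 3-group fit, and the 6 knockdown libraries with the 3 controls in a 2-group fit. Calls needed an adjusted p under 0.05 and a log2 fold change of at least 1 in size. An SE is the log2 fold change over the square root of F. The biological coefficient of variation was 13.1% and 18.2% in the 2 fits. CPM used TMM-scaled library sizes, and CPM per kb the gene length in the table. Groups at 0 were set against 3 counts over the group, without counting error for the control counts. Ratios of summed counts carry exact 95% intervals. The scripts were tested on simulated data. DESeq2 1.42.0, other scalings, filters and thresholds, and leaving out each library were tried as alternatives.

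The genes named were MPZL3, the 10 members, up to 6 called genes of each list with a mean of at least 1 CPM (by size of change), the nearest tested gene on each side of the cluster, and the 5 genes most like the member with the highest control level. Genes given outside this rule (PLAU, PLAUR, F2RL1, the markers, genes sharing exons with members, and EMC10) were chosen after their values were seen. Gene positions in the table matched GENCODE 29 for 95.2% of genes.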

Additional observations from a re-analysis of the deposited data

Results flagged for a closer look

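KLK6 and KLK7 were flagged because the effects of the 2 hairpins against the same control libraries differed by the test of that difference itself. KLK6 was higher with shRNA#3 than with shRNA#1 by 4.30 on the log2 scale (edgeR adjusted p = 2.04e-07), at 407 against 23 summed counts, and all 3 libraries of shRNA#3 were above all 3 of shRNA#1. KLK7 was higher by 5.26 on the log2 scale (edgeR adjusted p = 0.0177), at 13 against 0 summed counts. MPZL3 itself did not pass the test between the hairpins (-0.25 ± 0.26 SE, edgeR adjusted p = 0.614).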

How the results depend on the processing

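Of 805 values recomputed under the alternatives, 775 kept their direction and their side of the threshold, or stayed within 1.5 times the count. The fall of KLK5, KLK6, KLK7, KLK8, KLK10, SLPI and A2ML1 was called for both hairpins and in the pooled comparison under each alternative in which the gene was tested. A filter at a mean of 1 CPM removed low genes and left 4 members called in each comparison with control and 1 between the hairpins. Between the hairpins 1 member was also called with the 2-fold limit inside the test, with only the libraries compared, at an adjusted p under 0.01 and without replicate A of every group (chosen after seeing the data), and 1 to 3 were called when single libraries were left out, where the lowest count came without library C of shRNA#1. With only the libraries compared, KLK7 did not pass the filter on low counts and was not tested. The cause of the other changes was not tested. KLK7 had an edgeR adjusted p of 0.131 with the 2-fold limit inside the test and 0.0535 without replicate A. With no fold limit 8 receptors and substrates were called, and with the 2-fold limit inside the test 5 other inhibitors and 0 nuclear hormone receptors, of which 1 to 2 were called when single libraries were left out (1 without library B of control or of shRNA#1). Uncalled values changed sign: SPINK5 ranged from -0.00399 to 0.26 in the pooled comparison and from -0.35 to 0.12 for shRNA#1 when single libraries were left out, with 0.016 without replicate A, and the difference of A2ML1 between the hairpins from -1.83 to 1.94, with 2.37 without replicate A of every group. Libraries sharing a letter deviated together for A (correlations of 0.455 to 0.523) and C (0.276 to 0.385) but less for B (0.057, 0.088 and 0.171), and control B correlated best with shRNA#1 C (0.194). Since 2 of the 9 pairs were under 0.1 and no source ties a letter to a shared batch, the letters were not taken as pairs. With the letter as a replicate block 7 members were called against control and 3 between the hairpins, SLPI being added (1.07, edgeR adjusted p = 0.00367). SLPI was also called there with no filter (1.04, edgeR adjusted p = 2.38e-06). Depth limits KLK7, KLK8, KLK10, KLK11, KLK13 and A2ML1: 12 of 30 gene-by-group levels rested on at most 3 counts in each library. KLK6 with shRNA#1 was also low, at 6, 6 and 11 counts.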
